A study of Mus musculus with 7 samples.

Results

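Expression of 10 genes of the Serpina cluster on mouse chromosome 12 was followed in the liver of mice on 2 diets. They were taken from the deposited expression table by their gene names: 5 alpha-1-antitrypsin copies (Serpina1a, Serpina1b, Serpina1c, Serpina1d and Serpina1e), 3 Serpina3 copies (Serpina3k, Serpina3m and Serpina3n), Serpina6 and Serpina12. These are 10 of the 29 rows with a Serpina name and of the 54532 rows of the table, and all 10 passed the filter on low values, Serpina12 through the 3 AL livers and 1 CR liver. The names were chosen with their difference between the diets already known, so every comparison of AL with CR for these 10 genes is a description and carries no test. Liver RNA came from male C57BL/6 mice aged 30 weeks, 3 fed ad libitum (AL) and 4 on calorie restriction (CR). Restriction began at 12 weeks of age and was stepped up to 30%, so that livers were taken after 18 weeks on the diet. CR mice lived in separate cages and were given a daily meal after lights off, AL mice lived in shared cages with food always at hand, and all livers were taken in the same afternoon hours. Restriction thus cannot be told apart from the caging or from the hours since feeding. Each mouse gave 1 library.

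Serpins are protease inhibitors that work as bait. An exposed stretch, the reactive-centre loop, is cut by the target protease, the serpin then changes shape with the enzyme bound to it, and both are lost. Many clade A serpins are secreted into plasma by hepatocytes. Human alpha-1-antitrypsin is the product of a single gene and restrains neutrophil elastase in the lung, whereas the mouse has several near-identical copies. Human alpha-1-antichymotrypsin, which inhibits cathepsin G, likewise corresponds to a row of mouse Serpina3 copies. A few members of the clade have lost inhibition and carry hormones instead, among them Serpina6, corticosteroid-binding globulin.

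Copies of the same family differed between the diets to very unlike degrees. Serpina1e, the most abundant of the 10 in AL livers, was 211 times lower on average in CR livers, while Serpina1b and Serpina1d, whose coding sequences are 96.3% identical to it, were at 0.963 and 1.10 times their AL means. Serpina3k and Serpina3n were 5.71 and 5.03 times lower in CR livers and Serpina3m, at 1.01 times its AL mean, overlapped between the diets. Serpina12 was 52.4 times lower. Serpina6 was 2.45 times higher in CR livers, and 1 of 2 genes of the 10 whose CR values all lay above the AL values. In the fit over all genes (limma on log2 of FPKM + 0.1), 6 of the 10 were called lower and 1 higher at an adjusted p under 0.05, where 10.2% and 11.3% of the 12699 genes tested were called in these directions. The 2 groups of livers did not overlap for 6 genes lower and 2 higher in CR, where 16.8% and 17.6% of genes tested had such groups. In either direction the shares over all genes were 21.5% called and 34.4% without overlap. The members were chosen on this contrast, so these shares are given for scale.

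**Figure D1:**
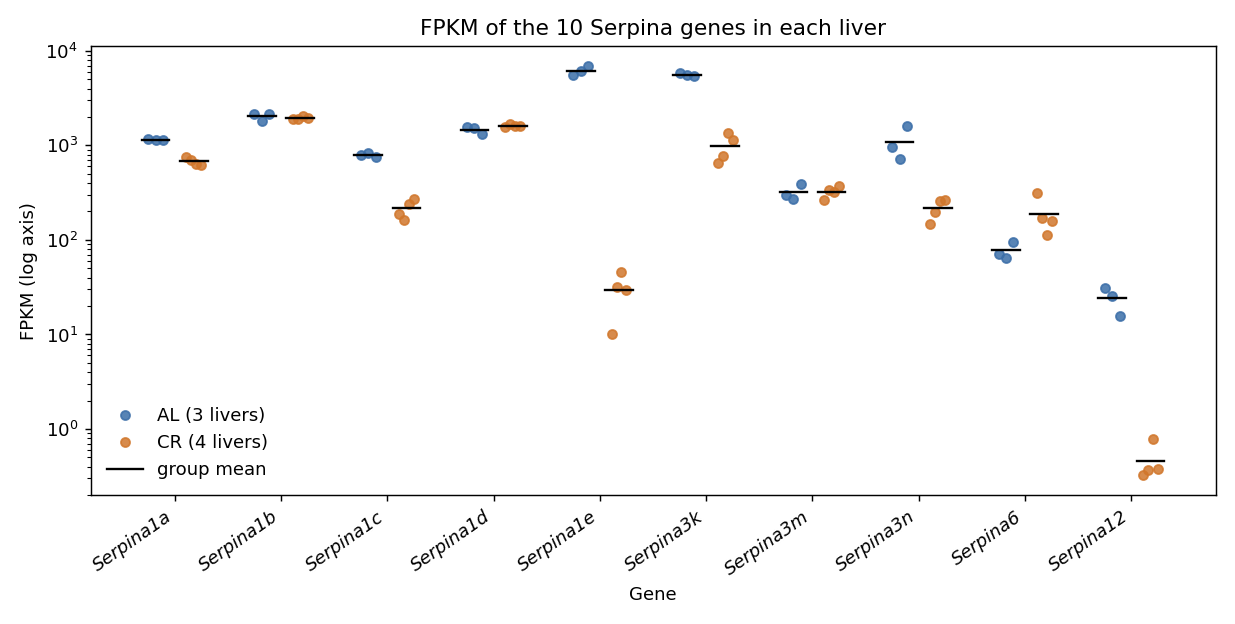
Each point is the FPKM of 1 gene in 1 liver on a log axis, with AL livers in blue, CR livers in orange and the group mean as a black bar. Serpina1e and Serpina12 show the widest gaps between diets, Serpina1b and Serpina3m overlap, and Serpina6 stands higher in CR.

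Reads in genes numbered 15641740 to 16101631 in the AL libraries and 16486665 to 19900806 in the CR libraries. Levels are in FPKM (fragments per kilobase and 1000000 fragments), and 1 read in a gene of 2 kb is worth 0.025 to 0.032 FPKM. The library total that these values imply was 0.989 to 1.05 times the reads in genes, and how it was set is not given. Mitochondrial transcripts took 3.92% to 4.85% of reads in AL and 5.62% to 8.09% in CR. The hepatocyte marker list summed to 27280 to 44050 FPKM in AL and 56470 to 60630 FPKM in CR over 9 measured genes, so the libraries carried the markers of the labelled tissue. Alb was the largest part of these sums, with means of 20408 FPKM in AL and 39211 FPKM in CR. Of the 9 genes, Alb and Ass1 rose and 7 did not pass. Among these 7, Apoa1 had all CR livers below the AL livers and Cps1 had all CR livers above them. Within each diet the livers were not alike. AL replicate 3 held far more of several acute-phase transcripts than AL replicates 1 and 2, and in CR several of the 10 genes separated replicates 1 and 2 from replicates 3 and 4. From bulk liver, fewer cells of a type and less RNA per cell cannot be told apart.

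The near-identity of the copies is shown first, because it bounds what can be said of each. Coding sequences of the 5 Serpina1 copies were 96.3% to 98.5% identical over 1242 aligned bases, those of Serpina3k and Serpina3m 91.3%, of Serpina3m and Serpina3n 85.2% and of Serpina3k and Serpina3n 82.7%. Between the families, or to Serpina6 and Serpina12, identity was 47.1% to 56.7%. Differences between Serpina1 copies were bunched. An alignment of 1311 columns held 155 that vary among the 5 copies. These count the columns where only Serpina1a has a base, as it has 1311 coding bases and each other copy 1242. Of the variable columns, 18, all without gaps, fell in the 60 bases shown here. These bases were picked as the window with the most variable columns and lie in the part coding for the reactive-centre loop. Capitals mark the variable bases, and coordinates are GRCm38.
Serpina1a, chr12:103853757-103853816, minus strand: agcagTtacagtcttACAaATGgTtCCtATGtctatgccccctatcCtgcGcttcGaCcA
Serpina1b, chr12:103728324-103728383, minus strand: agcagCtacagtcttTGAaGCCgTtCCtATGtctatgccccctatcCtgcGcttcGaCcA
Serpina1c, chr12:103895094-103895153, minus strand: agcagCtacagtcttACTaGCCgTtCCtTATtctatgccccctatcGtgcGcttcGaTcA
Serpina1d, chr12:103763762-103763821, minus strand: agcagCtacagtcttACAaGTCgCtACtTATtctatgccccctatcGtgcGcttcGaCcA
Serpina1e, chr12:103947100-103947159, minus strand: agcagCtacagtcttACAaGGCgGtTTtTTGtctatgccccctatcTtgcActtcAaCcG
In this window Serpina1e differed from the other 4 copies at 10 to 12 of the 60 bases, and Serpina1c from Serpina1d at 5. The 3 Serpina3 copies had 257 variable columns, gap columns among them, in an alignment of 1263. Of these, 26 fell in their own most variable window of 60 bases without gaps, in the same part of the protein.
Serpina3k, chr12:104345267-104345326, plus strand: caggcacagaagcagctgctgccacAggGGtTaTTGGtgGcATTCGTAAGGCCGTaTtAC
Serpina3m, chr12:104393767-104393826, plus strand: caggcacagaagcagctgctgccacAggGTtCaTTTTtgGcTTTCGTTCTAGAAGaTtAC
Serpina3n, chr12:104413446-104413505, plus strand: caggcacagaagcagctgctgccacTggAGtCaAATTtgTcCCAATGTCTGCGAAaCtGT
Serpina3k differed from Serpina3m at 13 of these bases and from Serpina3n at 23.

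Outside such stretches the copies share sequence, and a read that lies wholly within it fits several copies by its own bases. The percent of a gene's 100-base words (every run of 100 bases in its transcripts) that also occur in another gene was 69.3% for Serpina1c, 42.8% for Serpina1a, 29.3% for Serpina1d, 14.8% for Serpina1b and 14.4% for Serpina1e. With words of 50 bases these shares were 79.3%, 57.6%, 50.9%, 29.5% and 34.6%, and with words of 150 bases 59.7%, 35.1%, 23.3%, 11.9% and 7.36%. Serpina1c and Serpina1a shared most with each other: 58% of the words of Serpina1c lay in Serpina1a, and 16.7% lay in Serpina1e. Serpina3k and Serpina3m shared 4.85% and 6.09% of their words, Serpina3n 0.204%, and Serpina6 and Serpina12 none. Reads came in pairs, each as long as the longest words above. Whether a mate placed a read that fits several copies was not tested. The sources used here do not say how reads that fit several copies were counted. The split of reads among Serpina1 copies is therefore uncertain, most of all for Serpina1c and Serpina1a.

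**Figure D2:**
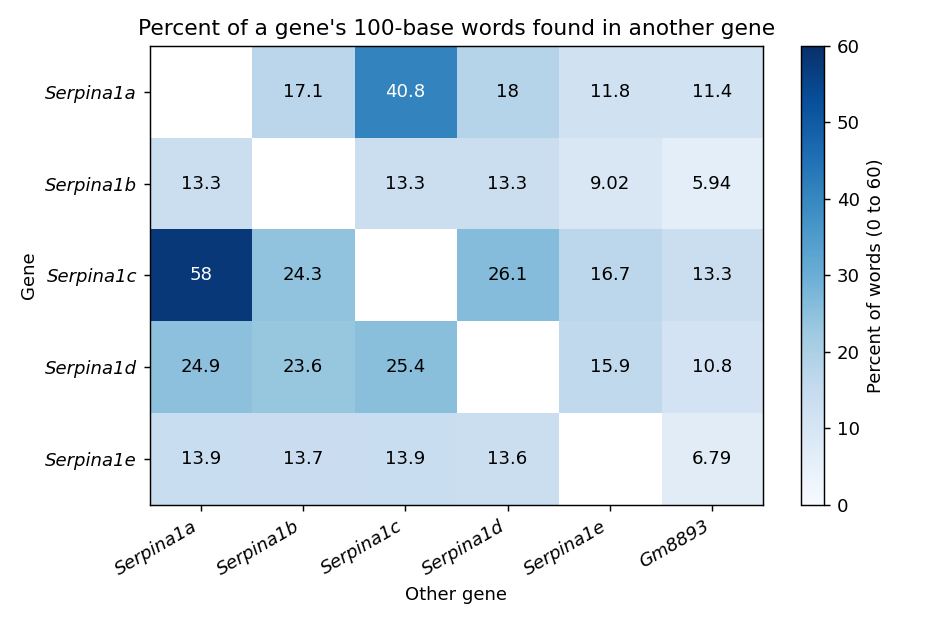
Each cell gives the percent of the 100-base words of the gene in its row that also occur in the gene of its column, for the 5 Serpina1 copies and the pseudogene Gm8893. Serpina1a and Serpina1c share most, 40.8% and 58%, and Serpina1b and Serpina1e share less than 14% with any other copy.

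Serpina1e, ENSMUSG00000072849 at chr12:103946931-103958975 on the minus strand, was at 5604, 6083 and 6862 FPKM in AL replicates 1 to 3. In CR replicates 1 to 4 it was at 9.997, 31.5, 46.1 and 29.8 FPKM. The lowest AL liver held 121 times the highest CR liver, and among CR livers replicate 1 was 4.62 times below the highest. In reads the AL livers ranged from 147573 to 172962 and the CR livers from 321 to 1278. The group means were 6183 FPKM (SD 635, n = 3) and 29.4 FPKM (SD 14.8, n = 4), a log2 fold change of -7.90 (SE 0.46). Serpina1e ranked 8th of all rows by mean FPKM in AL and 1341st in CR.

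The copies with the next highest AL levels were about level between the diets. Serpina1b, ENSMUSG00000071178 at chr12:103728156-103830373, was at 2151, 1807 and 2147 FPKM in AL livers and at 1914, 1898, 2070 and 1960 FPKM in CR livers. The ranges overlapped, with a log2 fold change of -0.05 (SE 0.12). Serpina1d, ENSMUSG00000071177 at chr12:103763594-103773592, was at 1571, 1525 and 1324 FPKM in AL and at 1585, 1674, 1606 and 1600 FPKM in CR. Its CR livers all lay above its AL livers, but only by 1.01 times between the closest pair, and the log2 fold change was 0.14 (SE 0.11). The annotated span of Serpina1b includes exons far upstream and encloses Serpina1d.

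Serpina1a, ENSMUSG00000066366 at chr12:103853589-103863562, lay between these extremes. It was at 1173, 1133 and 1131 FPKM in AL and at 747, 707, 638 and 622 FPKM in CR, 1.69 times lower on average (log2 fold change -0.76, SE 0.11), and the groups stood apart. Serpina1c, ENSMUSG00000079015 at chr12:103894926-103904887, was at 786, 829 and 755 FPKM in AL. In CR it was at 190, 161, 239 and 273 FPKM, 3.66 times lower (log2 fold change -1.90, SE 0.19), with replicates 1 and 2 below replicates 3 and 4. An antisense transcript, B430119L08Rik, overlaps 429 exon bases of Serpina1c, 31.5% of its exon length. It was itself lower in CR (from 5.38 FPKM, SD 1.77, to 1.07 FPKM, SD 0.542, adjusted p = 0.0085 from limma), and with the strand setting of the counting not given its reads and those of Serpina1c cannot be told apart. Gm8893, an unprocessed pseudogene inside the span of Serpina1b that holds 5.94% to 13.3% of the words of each Serpina1 copy, also fell, from 69.2 to 23.2 FPKM (log2 fold change -1.59, SE 0.18, adjusted p = 0.00115 from limma). Both were picked out after their values were seen, and the part of shared reads in their values was not tested.

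A sum over the copies does not move when reads pass from one copy to another, though reads that were dropped or counted to Gm8893 or B430119L08Rik would be missing from it, which was not tested. The 5 Serpina1 copies together took 2.01%, 2.06% and 2.12% of the reads in genes in AL livers and 0.846%, 0.842%, 0.871% and 0.867% in CR livers. Scaled as the deposited values are, that was 20140 reads per 1000000 (SD 941, n = 3) in AL and 8571 (SD 157, n = 4) in CR, a log2 difference of -1.23 (SE 0.04). Serpina1e carried most of it. Without Serpina1e, the other 4 copies summed to 10605, 9693 and 10128 reads per 1000000 in AL and to 8458, 8431, 8730 and 8473 in CR, a log2 difference of -0.25 (SE 0.03) with groups that did not overlap. Since these 4 copies share words with Serpina1e, the part of reads placed on the wrong copy in this smaller difference was not tested.

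The make-up of the Serpina1 pool differed between the diets. Serpina1e gave 46.1%, 50.4% and 52.3% of the Serpina1 reads in AL livers and 0.191%, 0.600%, 0.848% and 0.566% in CR livers. Serpina1b gave 24.4% (SD 2.04) in AL and 55.2% (SD 1.20) in CR, and Serpina1d gave 10.2% (SD 1.34) and 26.3% (SD 0.874). Serpina1a gave 10.4% (SD 0.608) and 14.5% (SD 1.42) although its own level was lower in CR, and Serpina1c gave 5.35% (SD 0.476) and 3.42% (SD 0.771). By FPKM, which divides by gene length, Serpina1e gave 53.1% in AL and 0.650% in CR, and Serpina1b gave 17.5% and 43.6%. On either scale the leading copy was Serpina1e in each AL liver and Serpina1b in each CR liver.

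**Figure D3:**
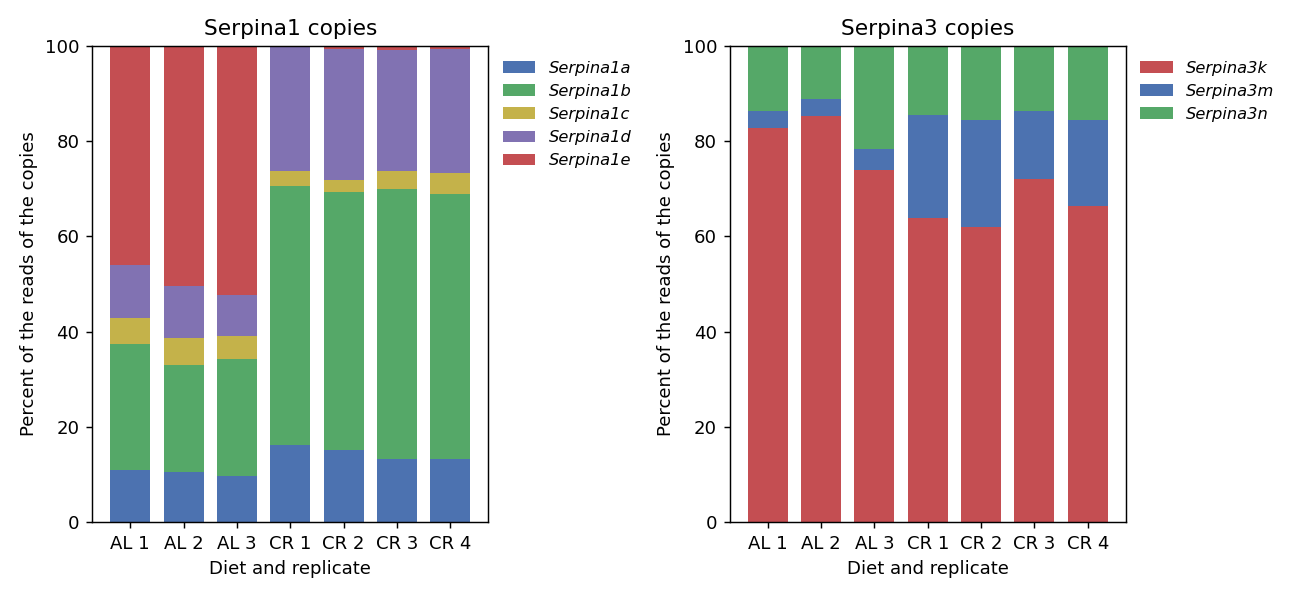
Stacked bars give the percent of reads that each copy contributed to the Serpina1 copies (left) and to the Serpina3 copies (right) in each liver. Serpina1e makes up 46.1% to 52.3% of the Serpina1 reads in AL livers and at most 0.848% in CR livers, and Serpina3m takes a larger share of the Serpina3 reads in CR.

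The sequence before the RefSeq start of each Serpina1 copy is nearly the same as well. Promoter windows (250 bases before to 50 after the RefSeq start, GRCm38.p6) were held for 7 of the 10 genes, not for Serpina3k, Serpina3m or Serpina6. The windows of the 5 Serpina1 copies were 91.7% to 98.4% identical where they align. The stretch that all 5 hold, cut so as to end before the RefSeq start of every copy, is shown. For Serpina1b and Serpina1e it lies inside the annotated span given above, which reaches further upstream. The 23 variable columns, gap columns among them, are in capitals. The stretch is given because it sets the copy with the largest difference between diets beside copies that were about level.
Serpina1a, chr12:103863625-103863812, minus strand: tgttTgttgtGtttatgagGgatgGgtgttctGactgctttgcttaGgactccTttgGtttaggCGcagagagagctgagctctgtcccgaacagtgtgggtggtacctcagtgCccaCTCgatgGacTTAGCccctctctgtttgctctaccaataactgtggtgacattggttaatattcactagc
Serpina1b, chr12:103738200-103738389, minus strand: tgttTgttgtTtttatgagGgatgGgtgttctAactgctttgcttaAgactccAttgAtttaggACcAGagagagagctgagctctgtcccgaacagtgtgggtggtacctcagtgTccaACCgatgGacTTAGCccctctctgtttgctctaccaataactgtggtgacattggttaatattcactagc
Serpina1c, chr12:103904962-103905149, minus strand: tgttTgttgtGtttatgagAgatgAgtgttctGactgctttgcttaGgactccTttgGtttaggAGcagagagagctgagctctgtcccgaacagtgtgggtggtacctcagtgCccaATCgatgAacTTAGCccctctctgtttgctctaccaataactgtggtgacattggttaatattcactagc
Serpina1d, chr12:103773634-103773822, minus strand: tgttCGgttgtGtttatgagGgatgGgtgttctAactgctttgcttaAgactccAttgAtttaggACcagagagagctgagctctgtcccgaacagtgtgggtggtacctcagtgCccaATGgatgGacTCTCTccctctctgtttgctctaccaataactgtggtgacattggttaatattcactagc
Serpina1e, chr12:103956960-103957147, minus strand: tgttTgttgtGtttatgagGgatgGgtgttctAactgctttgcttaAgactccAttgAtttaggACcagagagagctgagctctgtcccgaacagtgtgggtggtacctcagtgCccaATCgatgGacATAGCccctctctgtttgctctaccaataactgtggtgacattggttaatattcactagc
Serpina1b and Serpina1e differed here by 4 substitutions and 2 gap columns of 191, the fewest substitutions of the 10 pairs, and the other pairs by 5 to 14 substitutions. The RefSeq start of Serpina1e lies 62 bases beyond the end of this stretch and those of the other copies 0 to 11 bases beyond it. In all, 4 motifs were searched on both strands of the 7 windows. TTGCNNAA, the core bound by C/EBP factors of acute-phase genes, was in the windows of Serpina1a, Serpina1b, Serpina1d, Serpina1e and Serpina12 and in 10.8% of 32851 mouse promoters. In Serpina1b, Serpina1d and Serpina1e it lies inside the stretch shown, but in Serpina1a it lies after the RefSeq start. ACANNNTGT, a glucocorticoid receptor pattern, was in those of Serpina1a and Serpina3n and in 6.85% of promoters. TTCNNNGAA, bound by STAT factors, and TATAAA were in none of the 7, and in 8.3% and 13.6% of promoters. These are letter matches only.

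Serpina3k, ENSMUSG00000058207 at chr12:104338486-104346144 on the plus strand, codes for a plasma inhibitor known as a kallikrein-binding protein. It was the second most abundant of the 10 genes in AL livers, at 5835, 5546 and 5476 FPKM. In CR livers it was at 651, 781, 1362 and 1141 FPKM, so that replicates 1 and 2 lay below replicates 3 and 4 and all lay far below AL. The log2 fold change was -2.57 (SE 0.25). Serpina3n, ENSMUSG00000021091 at chr12:104406729-104414329, codes for an inhibitor of granzyme B and cathepsin G that is made in the acute-phase response. It was at 963, 719 and 1596 FPKM in AL and at 146, 196, 259 and 268 FPKM in CR (log2 fold change -2.29, SE 0.31), with AL replicate 3 well above the other AL livers. Serpina3m, ENSMUSG00000079012 at chr12:104338486-104394257, was at 296, 272 and 394 FPKM in AL and at 263, 339, 320 and 368 FPKM in CR. Its ranges overlapped and the log2 fold change was 0.02 (SE 0.17), with a sign that changed under several settings. Serpina3k and Serpina3m share an annotated first exon of 60 bases.

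Summed over the 3 Serpina3 copies, reads were 14366 per 1000000 (SD 945, n = 3) in AL livers and 3026 (SD 827, n = 4) in CR livers, a log2 difference of -2.29 (SE 0.25). CR replicates 1 and 2 held 2093 and 2594 reads per 1000000 and replicates 3 and 4 held 3885 and 3531. Serpina3k gave 80.7% (SD 6.01) of the sum in AL and 66.1% (SD 4.39) in CR. Serpina3m gave 3.82% (SD 0.544) in AL and 19.0% (SD 3.80) in CR, while its own FPKM overlapped between the diets. Serpina3n gave 15.5% (SD 5.48) and 14.9% (SD 0.929).

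Serpina6, ENSMUSG00000060807 at chr12:103646630-103657212 on the minus strand, is the plasma carrier of corticosterone. It was at 71.8, 64.6 and 95.7 FPKM in AL livers and at 314, 170, 114 and 160 FPKM in CR livers. The groups did not overlap, and CR replicate 1 was 2.76 times CR replicate 3 (log2 fold change 1.21, SE 0.32). Without CR replicate 1 it was 0.93 and without CR replicate 3 it was 1.42. Serpina12, ENSMUSG00000041567 at chr12:104028769-104044443 on the minus strand, is vaspin, an adipokine that inhibits kallikrein 7 and was first described in rat visceral fat. It was at 31.4, 25.5 and 15.7 FPKM in AL livers, and at 0.328, 0.364, 0.775 and 0.379 FPKM in CR livers, from 22 to 49 reads a library. The groups stood far apart with a log2 fold change of -5.44 (SE 0.32), which a pseudocount of 1 FPKM shrank to -4.07. Of 5 adipocyte markers Lep was at 0 in all libraries and 2 were tested. Cfd was at 6.26, 5.87 and 3.41 FPKM in AL and at 0, 0.331, 0 and 0 FPKM in CR, and carried the difference in the summed list (4.87 to 8.02 FPKM in AL, 1.44 to 2.27 FPKM in CR). Fabp4 overlapped, at 1.67 FPKM (SD 0.368) in AL and 1.61 FPKM (SD 0.175) in CR (log2 fold change -0.04, adjusted p = 0.890 from limma). The part of these markers in the values of Serpina12 was not tested.

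The order of the 10 genes by FPKM changed between the diets. In AL livers Serpina1e and Serpina3k led with overlapping ranges, followed by Serpina1b, Serpina1d, then Serpina1a, Serpina3n and Serpina1c, where neighbours overlapped, and by Serpina3m, Serpina6 and Serpina12. In CR livers Serpina1b (1960 FPKM, SD 77.4) and Serpina1d (1616 FPKM, SD 39.4) led, and Serpina3k overlapped Serpina1a behind them. Serpina3m, Serpina3n, Serpina1c and Serpina6 followed with neighbours that overlapped, and Serpina1e was 9th of 10. Spread between livers also differed by gene. The coefficient of variation in CR was 2.44% for Serpina1d and 3.95% for Serpina1b, against 50.6% for Serpina1e, 45.7% for Serpina6 and 45.6% for Serpina12. CR replicate 1 was the lowest CR liver for 6 of the 10 genes, among them Serpina1e, Serpina3k and Serpina3n, and the highest for Serpina6 and Serpina1a.

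**Figure D4:**
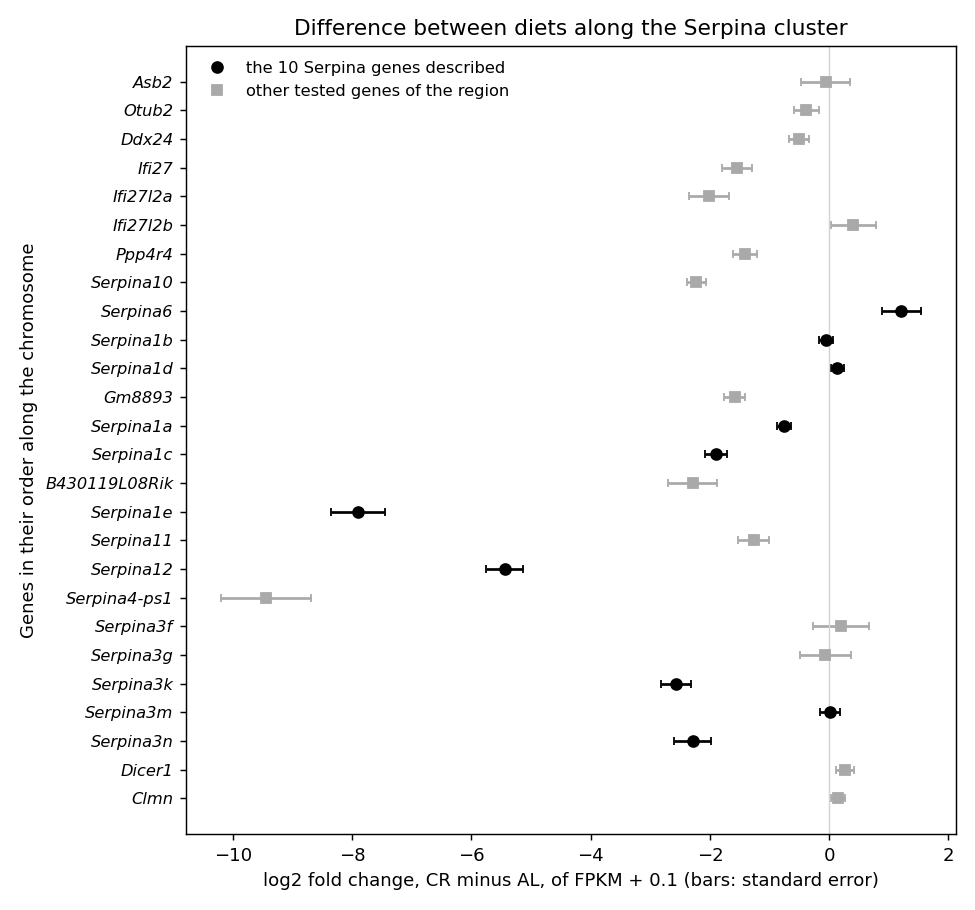
Points give the log2 fold change, CR minus AL, of log2(FPKM + 0.1) with its standard error for the 26 tested genes from before to after the cluster, in their order along the chromosome and not to scale. The 10 Serpina genes are black circles and other genes grey squares, and values range from -9.44 for Serpina4-ps1 to 1.21 for Serpina6.

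Along the chromosome, genes with unlike differences lay side by side. The 10 genes span 767.7 kb, and the 28 Serpina rows on chromosome 12 span 799.5 kb. Serpina1b and Serpina1d, about level, sit between Serpina6, higher in CR, and Serpina1a and Serpina1c, both lower, and Serpina3m lies between Serpina3k and Serpina3n. Tested genes next to the cluster, named for their place after their values were seen, were mixed on the Serpina10 side. Going outward there, Ppp4r4 (log2 fold change -1.42, adjusted p = 0.00366 from limma) was followed by Ifi27l2b (0.40, adjusted p = 0.485), Ifi27l2a (-2.01, adjusted p = 0.00662) and Ifi27 (-1.55, adjusted p = 0.00578). Further out, Ddx24 (-0.51, adjusted p = 0.0627), Otub2 (-0.38, adjusted p = 0.242) and Asb2 (-0.06, adjusted p = 0.93) did not pass, though all CR livers lay below the AL livers for Ddx24. On the Serpina3n side Dicer1 (0.26, adjusted p = 0.240) and Clmn (0.14, adjusted p = 0.402) did not pass.

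Other clade A serpins were described from a list of 18 names, of which 17 were in the table and 7 passed the filter. None rose, 4 fell and 3 did not pass the test, and the median log2 fold change was -1.13, against -0.0019 for all genes tested. Serpina10, the protein Z-dependent inhibitor of coagulation factor Xa, was at 157, 144 and 214 FPKM in AL and at 33.6, 40.2, 37.7 and 33.1 FPKM in CR, with no overlap (log2 fold change -2.23, SE 0.16, adjusted p = 0.000115 from limma). Serpina11 was at 24.6, 26.1 and 31.7 FPKM in AL and at 7.69, 9.03, 15.8 and 14.8 FPKM in CR (-1.27, SE 0.26, adjusted p = 0.0145, and 0.0516 without AL replicate 2). Serpina7, thyroxine-binding globulin on the X chromosome, was at 16.7, 25.6 and 23.7 FPKM in AL and at 12.7, 7.04, 12.4 and 8.51 FPKM in CR (-1.13, SE 0.24, adjusted p = 0.017, 0.0708 without AL replicate 2 and 0.0958 with a block by replicate number). Angiotensinogen, Agt, the precursor of angiotensin, had a log2 fold change of 0.37 (adjusted p = 0.139) with CR livers all above AL livers. Serpina3g and Serpina3f, low in liver, stood at log2 fold changes of -0.07 (adjusted p = 0.923) and 0.20 (adjusted p = 0.795). The remaining 13 Serpina rows did not pass the filter, and 5 of them were listed at 0 in all libraries.

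The pseudogene Serpina4-ps1 had the lowest fitted difference in the region, and 1 liver weighed on it. It held 10330, 1545 and 1107 reads in AL replicates 1 to 3 (493, 70.7 and 55.2 FPKM) and 0, 1, 3 and 5 reads in CR replicates 1 to 4. The groups stood far apart (log2 fold change -9.44, SE 0.75, adjusted p = 0.000246 from limma), and the fitted value depends on the pseudocount at such counts. As a ratio of reads it was 2166 times lower in CR (95% exact interval 1141 to 4738, which covers counting error only), and 664 times lower without AL replicate 1 (349 to 1453). It passed the filter only through the 3 AL livers, so that it drops out of the fit when any of them is left out.

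Serpins of other clades were mixed. Of 8 tested serpins from a list of 11, most of them secreted, 1 rose, 5 fell and 2 did not pass, with a median log2 fold change of -0.87. Serping1, the inhibitor of complement C1, fell from 422 FPKM (SD 151) to 161 FPKM (SD 32.5) (-1.36, SE 0.24, adjusted p = 0.00839 from limma). Serpine2, protease nexin 1, fell from 3.45 FPKM (SD 0.829) to 1.09 FPKM (SD 0.121) (-1.56, SE 0.20, adjusted p = 0.00209), and Serpinh1, the collagen chaperone, from 8.03 FPKM (SD 4.38) to 1.69 FPKM (SD 0.448) (-2.05, SE 0.40, adjusted p = 0.0119, and 0.0528 without AL replicate 2). Of 8 stellate cell markers, all tested, the collagen genes Col1a1 (-2.04, adjusted p = 0.00243) and Col3a1 (-1.18, adjusted p = 0.018) fell as well and 6 did not pass. Col1a1 passed the filter only through the AL livers, so a difference between diets was built into its entry. The summed list overlapped (32.0 to 42.1 FPKM in AL, 26.4 to 63.3 FPKM in CR), and the part of these markers in the value of Serpinh1 was not tested. Serpinf2, the plasmin inhibitor, had a log2 fold change of -0.45 (adjusted p = 0.0338, and 0.0569 to 0.0742 when any of the 7 livers was left out). Its adjusted p from limma was also 0.0563 without the filter on low values and 0.144 with a block by replicate number. Of 5 tested intracellular serpins, 1 rose, Serpinb6a (1.08, SE 0.15, adjusted p = 0.00281), and 4 did not pass.

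Among 21 tested plasma protease inhibitors that are not serpins, 2 rose, 5 fell and 14 did not pass, with a median log2 fold change of -0.31. Mug1 and Mug2, murinoglobulins that trap proteases of several classes, fell with log2 fold changes of -1.18 (SE 0.14, adjusted p = 0.00165 from limma) and -1.22 (SE 0.18, adjusted p = 0.00433). They are close relatives of each other, and the sequence they share was not measured. Tfpi2, an inhibitor of plasmin and tissue factor complexes, fell with -0.80 (SE 0.16, adjusted p = 0.0117, and 0.0527 without AL replicate 2). Ahsg, fetuin-A, with the highest mean of the list, did not pass (2903 and 2285 FPKM, -0.35, adjusted p = 0.0698).

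A list of 27 genes held proteases of the kind that these inhibitors face, and also Hgf, Mpo and Proz, which have no protease activity. Of 19 tested, none rose, 3 fell and 16 did not pass, with a median of -0.12. F11, coagulation factor XI, a target of Serpina10, fell from 29.7 FPKM (SD 2.70) to 9.998 FPKM (SD 0.606) (-1.56, SE 0.10, adjusted p = 8.1e-05 from limma). Cela1, an elastase, was at 13.4, 9.83 and 6.43 FPKM in AL and 1.79, 1.62, 2.41 and 2.17 FPKM in CR (-2.21, SE 0.25, adjusted p = 0.00135). Plg, plasminogen, passed with all livers (-0.42, adjusted p = 0.043) but not when any 1 of them was left out (0.057 to 0.103). Its adjusted p from limma was also 0.0698 without the filter on low values, 0.0517 without trended and robust variance and 0.107 with a block by replicate number. Neutrophil cathepsin G (Ctsg) and the vaspin target Klk7 were listed at 0 in all libraries.

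A list of 14 genes of hormone handling held steroid and thyroid hormone enzymes, nuclear receptors, glucocorticoid response genes and plasma carriers outside the clade, and 12 of them were tested. Of these 4 rose, 2 fell and 6 did not pass, with a median of 0.24. Akr1d1, the 5-beta-reductase of steroids, rose from 39.5 FPKM (SD 10.3) to 153 FPKM (SD 20.3) (1.98, SE 0.19, adjusted p = 0.000662 from limma), and Srd5a1, a 5-alpha-reductase, fell from 23.8 FPKM (SD 3.77) to 7.78 FPKM (SD 1.37) (-1.60, SE 0.16, adjusted p = 0.000858). Dio1, which deiodinates thyroid hormone, fell from 77.6 FPKM (SD 31.2) to 6.54 FPKM (SD 2.29) (-3.57, SE 0.38, adjusted p = 0.000925). Alb, albumin, a second and less selective carrier, rose from 20408 FPKM (SD 5770) to 39211 FPKM (SD 2409) (0.98, SE 0.21, adjusted p = 0.0171).

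Transcription factors and signalling genes known to act on liver serpins or on acute-phase genes gave 1 that rose, 8 that fell and 13 that did not pass of 22 tested, with a median of -0.52. Cux2, a repressor that is female-biased in mouse liver, rose from 2 or 3 reads an AL liver to 835 to 1047 reads a CR liver (log2 fold change 5.55, SE 0.20, adjusted p = 3.02e-06 from limma). Cux2 passed the filter only through the CR livers, and its fitted value depends on the pseudocount: it was 2.64 with 1 FPKM and 7.68 with 0.01 FPKM. As a ratio of reads Cux2 was 329 times higher in CR (95% exact interval 167 to 762, counting error only). Stat5a, a mediator of growth hormone signalling, fell with -0.73 (SE 0.13, adjusted p = 0.00755), and Il6st, the shared receptor chain of interleukin 6 signalling, with -0.83 (SE 0.16, adjusted p = 0.012, and 0.0518 without AL replicate 2). Hnf4a, a main hepatocyte factor, was at 186 FPKM (SD 44.4) and 181 FPKM (SD 28.7) and did not pass (adjusted p = 0.938).

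Genes that fold, export or remove alpha-1-antitrypsin moved mostly one way. Of 18 tested, 14 fell, 1 rose and 3 did not pass, with a median log2 fold change of -0.69. Calr, the chaperone calreticulin, was at 310, 313 and 332 FPKM in AL livers and at 119.9, 173, 152 and 119.7 FPKM in CR livers (-1.19, SE 0.15, adjusted p = 0.00244 from limma). The cargo adaptors of vesicles that leave the endoplasmic reticulum, Sec24c and Sec24d, fell with -0.78 (SE 0.10, adjusted p = 0.00227) and -0.93 (SE 0.12, adjusted p = 0.00213). Of the receptor that clears desialylated plasma proteins, the subunit Asgr2 was the gene of the list that rose, from 82.7 FPKM (SD 4.50) to 137 FPKM (SD 5.81) with no overlap (0.73, SE 0.09, adjusted p = 0.00243). The subunit Asgr1, with the highest mean of the list over the 7 livers, did not pass (0.29, adjusted p = 0.234).

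Acute-phase genes were examined because Serpina3n belongs to that response and because AL replicate 3 stood apart. Of 23 tested, 12 fell, 1 rose and 10 did not pass, with a median of -1.14. Il1rn, counted among those that fell, passed the filter only through the AL livers, so a difference between diets was built into its entry. Saa4, a serum amyloid A made without inflammation, was at 384, 398 and 370 FPKM in AL and at 41.9, 47.8, 38.8 and 45.5 FPKM in CR (-3.14, SE 0.11, adjusted p = 2.55e-06 from limma). Saa2, an inducible copy, was at 535, 477 and 3813 FPKM in AL and at 0.700, 1.12, 11.7 and 1.05 FPKM in CR (-9.02, SE 1.06, adjusted p = 0.00163), and shares sequence with Saa1 that was not measured. Crp, C-reactive protein, fell with -0.97 (SE 0.11, adjusted p = 0.00146), and Hpx, hemopexin, with the highest mean of the list over the 7 livers, did not pass (-0.79, adjusted p = 0.334).

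In AL replicate 3 Serpina3n was 1596 FPKM and Saa1 4176, Lcn2 765, Orm1 5294 and Hp 10360 FPKM, each the highest AL value. Fgb at 2403 FPKM and Crp at 140.5 FPKM were about level with the other AL livers, and Steap4 at 104.5 FPKM and Hamp at 656.7 FPKM were the lowest. Of the 10 genes, Serpina1e, Serpina3m, Serpina3n and Serpina6 were highest in AL replicate 3, and Serpina1a, Serpina1c, Serpina1d, Serpina3k and Serpina12 lowest. Without that liver the log2 fold change was -1.98 for Serpina3n, 0.17 for Serpina3m, 1.37 for Serpina6, -5.72 for Serpina12 and -7.82 for Serpina1e. In CR livers Saa1, Lcn2 and Orm1 peaked in replicate 3, at 36.9, 45.7 and 1984 FPKM, and Serpina3n was about level between replicates 3 and 4.

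**Figure D5:**
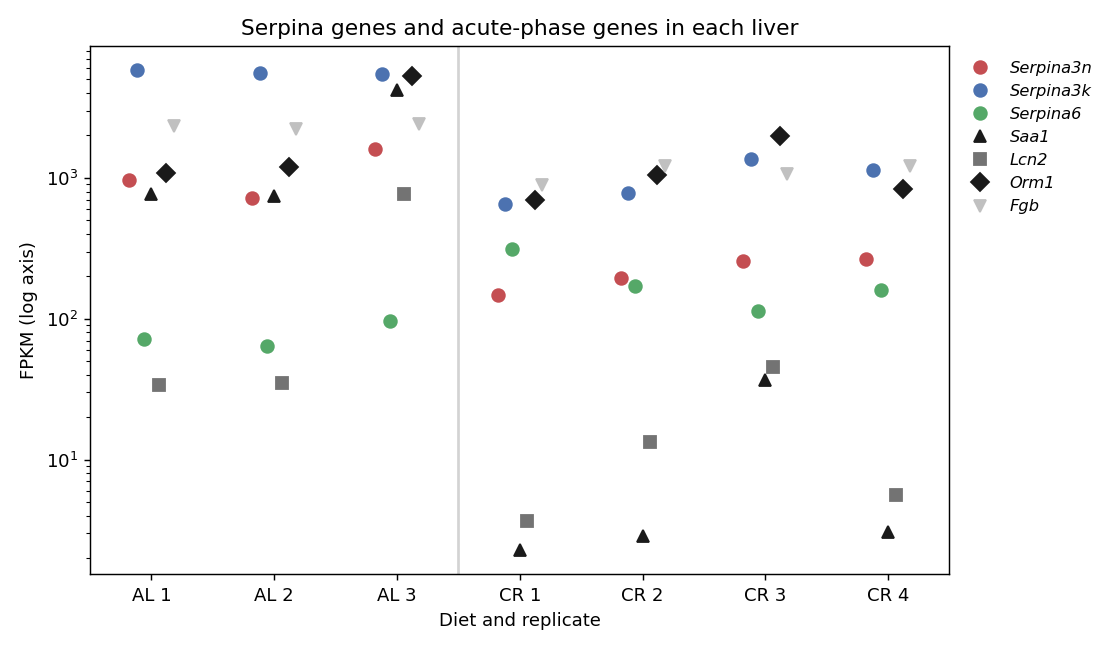
Points give the FPKM of 3 Serpina genes and 4 acute-phase genes in each liver on a log axis, with AL livers left of the grey line and CR livers right of it. Serpina3n, Saa1, Lcn2 and Orm1 are highest in AL replicate 3, whereas Serpina3k and Fgb are level among AL livers.

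Genes whose levels ran most like those of 4 of the 10 genes over the 7 libraries were found by Pearson correlation of log2(FPKM + 0.1), as a description, since both diets enter and the difference between diets carries most of each r. For Serpina1e they were Ssr2 (r = 0.997), St3gal3 (0.995) and Ganab (0.995). For Serpina3k they included Cmas (0.997) and Agap2 (0.996), with smaller log2 fold changes, of -0.70 and -1.57. For Serpina12 they were Rangap1 (0.997), Syt12 (0.996) and Lrrc59 (0.995). For Serpina6 they were Pnpla8 (0.982), Car8 (0.981) and Pde6c (0.975), and the last was at 0.0207, 0 and 0.173 FPKM in AL livers and 4.46, 1.67, 0.590 and 1.82 FPKM in CR livers, with CR replicate 1 highest and replicate 3 lowest as for Serpina6. Agap2 and Syt12 passed the filter only through the AL livers and Pde6c only through the CR livers, so a difference between diets was built into their entry. The fitted value of Agap2 was -0.58 with a pseudocount of 1 FPKM and -1.93 with 0.01 FPKM.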

How the data were processed

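Values were deposited by the authors as 1 table of FPKM per gene and library, with gene lengths. According to the submitters' processing notes, reads went through CASAVA 2.19, HISAT2 2.0.5 and, for counting, featureCounts 1.5.0-p3, and the builds named are mm10 and GRCm38. Not given in the sources used here are the annotation release, the strand setting, the treatment of reads that fit several genes and the FPKM formula. Multiplied by length, FPKM gave whole reads to within 0.00019 of a read in each library, and exon lengths of GENCODE M21 equal the deposited lengths of the 10 genes. A gene was tested where 3 or more of the 7 libraries held 0.5 FPKM or more, which left 12699. They were fitted with limma 3.58.1 in R 4.3.3 (robust and trended variance, with statmod 1.5.0) on log2(FPKM + 0.1), two-sided. Benjamini-Hochberg adjustment ran over all genes tested, at a threshold of 0.05. The fit was tested on simulated data. The main test used the values in the form deposited, FPKM, and limma-voom on the recovered reads was run as an alternative.

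Copies were summed as recovered reads. Shared words and coding windows came from GENCODE M21 transcripts, aligned with mafft 7.526, and promoters from RefSeq GRCm38.p6. Figures used Python 3.11.15 and matplotlib 3.10.9. The 10 genes, the gene lists and the tests were chosen with earlier results of these data known. Named beside the 10 are every other tested clade A serpin, of each further list the 3 genes with the smallest adjusted p among those that passed (ties included) and the most abundant gene, and 3 genes of like pattern for each of 4 of the 10. Of these, 1 gene is not reported here. Alternatives were 2 other pseudocounts, 2 other filters, 2 other scalings, limma without trend, limma-voom on the recovered reads, a block by replicate number, each library left out, copy shares by FPKM, and words of 50 and 150 bases. Scaling to all gene reads, and the Serpina1 sum without Serpina1e, were added after seeing the data.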

Additional observations from a re-analysis of the deposited data

Results flagged for a closer look

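In the CR group the gap between the most extreme liver and its nearest neighbour, over the range of the 4 livers, was compared with the 95% critical value of Dixon's test for the 10 genes, the other named genes and the copy sums, 60 sets of values in all. Chance alone gives such a gap in about 5% of groups, and AL, with 3 livers, was not examined. The sets were not independent, and Lrrc59 was picked for its likeness to Serpina12 over these same livers. Of 8 sets past the value, 6 were set by CR replicate 3. That CR liver had the highest Saa1 and Lcn2, and also the lowest sums of the 8 Kupffer cell markers (86.9 FPKM against 187, 237 and 166 FPKM) and the 8 endothelial cell markers (27.95 FPKM against 62.2, 54.1 and 56.6 FPKM). Their part in these values was not tested. Serpina12 was at 0.775 FPKM in CR replicate 3, against 0.328, 0.364 and 0.379 FPKM in the other CR livers, from 49 reads against 22 to 28. The Serpina1 copies summed to 8805 reads per 1000000 in that liver, against 8474, 8482 and 8521. Saa2 was at 11.7 FPKM there against 0.700, 1.12 and 1.05 FPKM, and Lrrc59 at 19.2 FPKM against 15.98, 15.97 and 15.96 FPKM. Il6st was lowest there, at 12.2 FPKM against 16.5, 17.1 and 16.5 FPKM, and so was Sec24c, at 11.5 FPKM against 13.7, 13.7 and 13.5 FPKM. Dio1 was at 3.10 FPKM in CR replicate 2, against 7.77, 7.53 and 7.76 FPKM in the others. Asgr2 was at 146 FPKM in CR replicate 1, against 133, 135 and 134 FPKM.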

How the results depend on the processing

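The direction of each of the 7 Serpina genes called by the fit held under every alternative that gave a value. Serpina12 has none where every library must reach 1 FPKM. Log2 fold changes ran from -8.18 to -7.45 for Serpina1e, -2.75 to -2.40 for Serpina3k, -2.55 to -1.98 for Serpina3n, -2.02 to -1.77 for Serpina1c, -0.81 to -0.72 for Serpina1a, 0.93 to 1.42 for Serpina6 and -5.77 to -4.07 for Serpina12. Serpina3m ran from -0.09 to 0.17. The Serpina1 sum differed by -1.23, by -1.37 when FPKM were summed, and by -1.25 to -1.19 with 1 library left out. The Serpina3 sum differed by -2.29, and by -2.42 to -2.13 with 1 library left out. Over all genes 1433 rose and 1291 fell. With 1 library left out 669 to 1514 rose and 540 to 1149 fell, with fewer calls by over 1.5 times without AL replicate 1 (778 and 603), AL replicate 2 (669 and 540) or CR replicate 2 (907 and 849), and the cause was not tested. Of 40 named genes past the threshold that are not among the 10, 14 lost the call under at least 1 alternative, 9 of them without AL replicate 2.

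Same-numbered livers did not deviate together (correlations of 0.031, -0.044 and -0.058), and AL replicates 2 and 3 correlated best with another number, so the numbers were not taken as pairs. With the replicate block 482 genes rose and 508 fell, and 10 of the 40 named genes lost the call. Among them were Alb, Stat5a, Serpina7, Serpinf2, Plg, Ganab, Agap2, Car8 and Pde6c. The fit with this block gives CR replicate 4 a level of its own and so leaves it out. At 15641740 to 19900806 reads a library, depth limits genes with few reads in some livers, among them Cux2, Serpina4-ps1, Pde6c, Syt12, Agap2 and Serpina12.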
